A study of Mus musculus with 6 samples.

Results

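The chemokine receptors of lymphocytes were examined in RNA from mouse T cells after co-culture with ovarian cancer cells. The set held 9 genes, Ccr2, Ccr4, Ccr7, Ccr8, Ccr9, Cxcr3, Cxcr4, Cxcr5 and Cxcr6, taken by gene name from the 54532 genes of the deposited table. All 9 were present and all 9 passed the expression filter described below. The T cells were splenic, from C57BL/6 mice of 6 to 8 weeks, isolated with a kit for all T cells, grown with IL-2 at 10 ng/mL, and stimulated beforehand for 72 h through CD3 and CD28 by antibody-coated beads. They were then cultured with ID8 cells, a mouse ovarian surface epithelial tumour line. In 3 libraries the ID8 cells had been pretreated with 40 µM cisplatin, a platinum drug that crosslinks DNA (the cisplatin group). In the other 3 they had received PBS (the control group, whose titles read WT). The T cells of both groups were activated and exposed to ID8 cells, so neither group shows resting T cells or T cells alone. The labels name no mouse or culture for a library, and the p-values therefore measure only the spread between these libraries, which may be technical.

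Chemokine receptors are G protein-coupled receptors with 7 transmembrane helices. A cell that carries one moves toward higher concentrations of its chemokine, through Gi proteins that activate Rac and integrins. The pattern of receptors on a T cell sets where it can go: to lymph nodes, to inflamed tissue, to the gut or skin, or to the bone marrow. After engagement the receptor is phosphorylated by G protein-coupled receptor kinases, bound by arrestins and taken into the cell.

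The 9 coding sequences share the motif that couples chemokine receptors to G proteins, at the inner end of a transmembrane helix. The stretch is shown for 8 receptors because it is what the family has in common in sequence and function. Capitals mark the 3 codons of the motif and lower case the 6 codons after it, in the sense direction from the GENCODE M21 transcripts (GRCm38).
Ccr7: GACCGCTACgtagccatcgtccaggcc
Cxcr5: GACCGGTACctagccatcgtccatgct
Cxcr3: GACAGATATctgagcatagtgcacgcc
Cxcr6: GATCGTTTCattgtagtggtccaggct
Ccr2: GATAGGTACttggctattgttcatgct
Ccr9: GACAGATACattgccattgtacaggcc
Ccr4: GACAGATACctggccatcgtgcacgcg
Cxcr4: GACCGGTACctcgctattgtccacgcc
The last codon in capitals is a variant in Cxcr6. Within the set the closest coding sequences were those of Ccr2 and Ccr4, with 59.8% identical bases and no identical run above 17 bases.

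In GRCm38, 6 of the 9 genes lie on chromosome 9. Ccr9 (ENSMUSG00000029530, chr9:123678439-123784330, plus strand), Cxcr6 (ENSMUSG00000048521, chr9:123806475-123811760, plus strand) and Ccr2 (ENSMUSG00000049103, chr9:124101950-124113557, plus strand) lie in one cluster of receptor genes. Ccr8 (ENSMUSG00000042262, chr9:120092114-120094906, plus strand), Ccr4 (ENSMUSG00000047898, chr9:114490316-114504916, minus strand) and Cxcr5 (ENSMUSG00000047880, chr9:44511787-44561877, minus strand) lie elsewhere on the same chromosome. Ccr7 (ENSMUSG00000037944, chr11:99144196-99155077, minus strand), Cxcr3 (ENSMUSG00000050232, chrX:101731535-101734269, minus strand) and Cxcr4 (ENSMUSG00000045382, chr1:128588199-128592293, minus strand) are each on another chromosome. The exons of Ccr9 share 1932 bases, 18.8% of their length, with AC165425.1 on the opposite strand, whose mean level was 0.158 FPKM with cisplatin-pretreated ID8 cells and 0.0331 FPKM in control. Cxcr5 shares 110 exonic bases, 3.3% of its exonic length, with Bcl9l on the opposite strand. The mean level of Bcl9l was 11.4 FPKM with cisplatin-pretreated ID8 cells and 24.8 FPKM in control. Whether reads were counted by strand is not stated, so reads of such overlaps cannot be assigned to either gene.

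The values were FPKM, the fragments on a gene per kilobase of its exons, scaled to a total for the library. That total was not equal to the library's reads on genes, as given under the processing. The whole reads behind them could be rebuilt, and each library held 30606569 to 32169496 reads on genes. T-cell identity genes were abundant in all libraries, with a sum over 26 genes of 1719 to 1843 FPKM in control and 2705 to 2784 FPKM in cisplatin. Markers of other cells were present as well. The 28 ID8 markers summed to 1940 to 2029 FPKM in control and 313 to 325 FPKM in cisplatin, and the 15 B-cell markers to 1743 to 1835 and 3704 to 3777 FPKM. Most of the B-cell sum was 1 gene, Ighm, with a mean of 1433 FPKM in control and 3220 FPKM in cisplatin. The 14 myeloid markers summed to 93.4 to 100.3 FPKM in control and 166 to 189 FPKM in cisplatin. The T-cell, B-cell and myeloid sums were higher in cisplatin, as was the sum of the receptors, and the ID8 sum was lower. The part of all these markers in the receptor levels was not tested. In bulk RNA fewer cells of a type and less RNA per cell cannot be told apart.

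Of the 9 receptors, 5 were higher with cisplatin-pretreated ID8 cells at an adjusted p-value under 0.05 (limma), 1 was lower and 3 did not pass. Ccr9, the receptor of gut-homing lymphocytes, and Cxcr3, the receptor of effector T cells for interferon-induced chemokines, passed the 2-fold minimum as well. Ccr2, Ccr4 and Ccr7 rose by smaller amounts, Cxcr6 fell slightly, and Cxcr4, Cxcr5 and Ccr8 did not pass the test. Over all 15874 genes tested, 27.5% were higher and 29.0% lower at this adjusted p-value, and 4.11% were called higher and 12.8% called lower once a fold change of at least 2 was required. The median log2 fold change of the 9 receptors was 0.52, against 0.03 over all tested genes. In 7 of the 9 receptors the libraries of the groups did not overlap, and this was so in 64.2% of all tested genes.

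**Figure D1:**
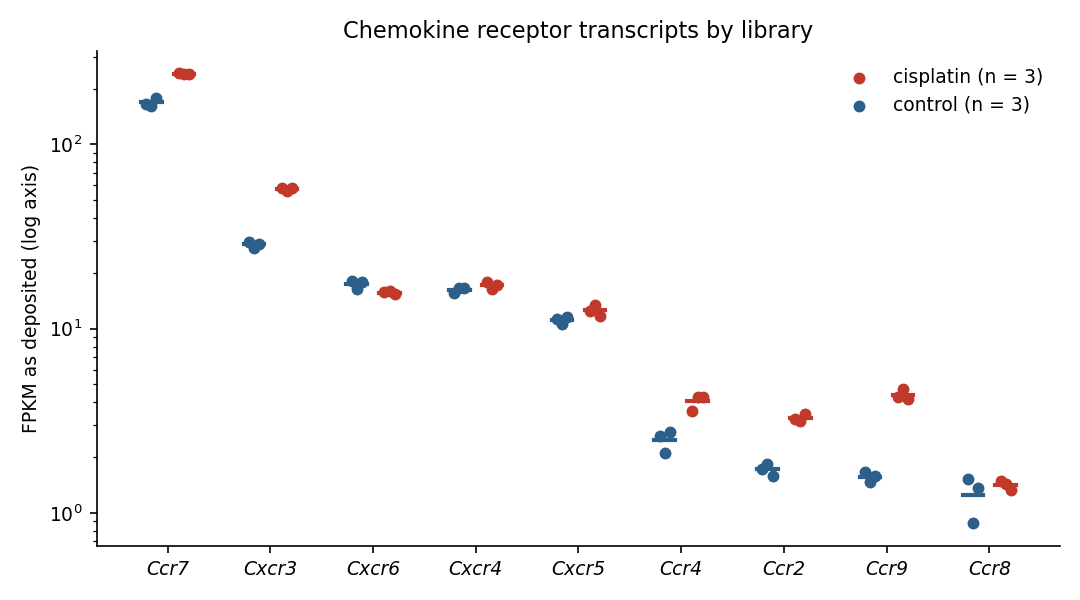
FPKM of each receptor in each of the 6 libraries on a log axis, with control in blue, cisplatin in red and a bar at each group mean (n = 3 per group). Ccr7 stood between 162 and 243 FPKM and Ccr8 between 0.880 and 1.53 FPKM, and the red and blue points overlapped for Ccr8 and Cxcr4 alone.

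In control the order of mean FPKM was Ccr7, Cxcr3, Cxcr6, Cxcr4, Cxcr5, Ccr4, Ccr2, Ccr9 and Ccr8. Neighbours in that order whose libraries overlapped were Cxcr6 with Cxcr4, Ccr2 with Ccr9, and Ccr9 with Ccr8. In cisplatin the order was Ccr7, Cxcr3, Cxcr4, Cxcr6, Cxcr5, Ccr9, Ccr4, Ccr2 and Ccr8, and Ccr9 and Ccr4 alone overlapped as neighbours. Ccr9 thus stood at rank 8 of 9 in control and at rank 6 in cisplatin. These levels are per length, and the length used is that of all exons of a gene together. For Ccr9 it is 10260 bases from 6 transcripts, and for Ccr8 it is 1175 bases from 1 transcript, so the FPKM of Ccr9 is low relative to that of a single short transcript with as many reads.

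Ccr7 guides naive and central memory T cells into lymph nodes along its ligands CCL19 and CCL21. Its level was 243, 242 and 242 FPKM in cisplatin and 165, 162 and 179 FPKM in control. Every cisplatin library lay above every control library. The means were 242 ± 0.902 FPKM and 169 ± 9.21 FPKM (SD, n = 3), with a log2 fold change of 0.52 (SE 0.04, adjusted p = 6.8e-05). Ccr7 was the most abundant receptor of the set and made up 67.6% ± 0.105 of the summed FPKM of the 9 in cisplatin and 67.7% ± 0.890 in control (SD, n = 3).

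Cxcr5, the receptor for CXCL13 on B cells and follicular helper T cells, leads into B-cell follicles. It measured 12.5, 13.5 and 11.7 FPKM in cisplatin and 11.2, 10.6 and 11.6 FPKM in control. The lowest cisplatin library exceeded the highest control library by little. Its log2 fold change of 0.17 (SE 0.06, 95% interval 0.02 to 0.32, adjusted p = 0.058) did not pass. Cxcr5 did pass as higher in 5 of 18 alternative settings: the 5 FPKM filter (adjusted p = 0.043), quantile normalization (0.0079), protein-coding genes alone (0.032), voom (0.0033) and without cisplatin replicate 3 (0.028, all limma).

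Cxcr3 binds CXCL9, CXCL10 and CXCL11 and takes Th1 cells and effector CD8+ T cells to inflamed tissue and tumours. It measured 58.2, 56.1 and 58.1 FPKM with cisplatin-pretreated ID8 cells and 29.6, 27.5 and 28.8 FPKM in control. The groups were far apart relative to the spread within them. The means were 57.5 ± 1.21 and 28.6 ± 1.09 FPKM (SD, n = 3), a log2 fold change of 1.003 (SE 0.04, adjusted p = 2.0e-06). This value lies on the 2-fold minimum: Cxcr3 reached it in 11 of 18 alternative settings, while the adjusted p-value stayed under 0.05 in all 18. It fell to 0.99 without cisplatin replicate 1, to 0.99 without cisplatin replicate 3 and to 0.97 without control replicate 2.

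Cxcr6 is the receptor of resident and effector memory T cells for CXCL16, a chemokine held on the membrane of dendritic cells and macrophages. It measured 15.7, 16.0 and 15.4 FPKM in cisplatin and 18.2, 16.4 and 18.0 FPKM in control. All cisplatin libraries lay below all control libraries, by a narrow margin at control replicate 2. The log2 fold change was -0.16 (SE 0.05, adjusted p = 0.033), and it passed in 8 of 18 alternative settings, so the fall of Cxcr6 depended on the setting. Leaving out a library took the adjusted p-value above 0.05 in 5 of 6 cases, to values from 0.061 to 0.096 (limma). It stayed under 0.05 without control replicate 2. Cxcr6 starts a short distance beyond the end of Ccr9 on chromosome 9, and these neighbours moved in opposite directions on the FPKM as deposited.

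Ccr2 is the receptor of monocytes and of some effector and regulatory T cells for CCL2 and CCL7. Its values were 3.24, 3.15 and 3.45 FPKM in cisplatin and 1.72, 1.85 and 1.59 FPKM in control. The groups did not overlap, with means of 3.28 ± 0.153 and 1.72 ± 0.130 FPKM (SD, n = 3). Ccr2 changed by a log2 fold change of 0.89 (SE 0.10, adjusted p = 0.00027). Of the 10 myeloid markers tested, 8 were higher as well, with a median log2 fold change of 1.19 over the 10. Over all tested genes 27.5% were higher. Among the 8, Fcgr1 and Adgre1 had control means of 0.293 and 0.288 FPKM, under the 0.5 FPKM of the filter. They passed it through the cisplatin libraries, so they are no independent support (Adgre1 named after its value was seen). The part of the myeloid markers in the rise of Ccr2 was not tested.

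Ccr9 binds CCL25 and brings T cells to the small intestine and progenitors to the thymus. It measured 4.24, 4.70 and 4.14 FPKM in cisplatin and 1.66, 1.47 and 1.59 FPKM in control, from 1378 to 1597 and 453 to 512 reads. The lowest cisplatin library stood well above the highest control library. The log2 fold change of 1.41 (SE 0.09, 95% interval 1.19 to 1.64, adjusted p = 2.5e-05) was the largest of the 9. Ccr9 reached the 2-fold minimum in 16 of the 17 alternative settings that tested it, the exception being centring on the T-cell list.

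Ccr4 binds CCL17 and CCL22 and is carried by Th2, regulatory and skin-homing T cells. Its values were 3.59, 4.25 and 4.25 FPKM in cisplatin and 2.61, 2.12 and 2.74 FPKM in control. Again no control library reached a cisplatin library, although both groups were more spread than for Cxcr3. Ccr4 rose by 0.68 on the log2 scale (SE 0.12, adjusted p = 0.0034).

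Ccr8, the receptor of activated regulatory T cells and skin-resident T cells for CCL1, was the least abundant. It measured 1.499, 1.44 and 1.34 FPKM in cisplatin and 1.53, 0.880 and 1.36 FPKM in control. These rest on 51 to 57 and 31 to 54 reads, and control replicate 2 stood below the other 5 libraries. The log2 fold change was 0.20 with a 95% interval from -0.32 to 0.72 (adjusted p = 0.47), so a difference of that size was not detectable at this depth. Without control replicate 2 it was -0.017.

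Cxcr4 binds CXCL12 and retains lymphocytes in the bone marrow, and MIF is a further ligand. It measured 18.0, 16.4 and 17.2 FPKM in cisplatin and 15.6, 16.6 and 16.6 FPKM in control. The groups overlapped at 16.4 to 16.6 FPKM. The log2 fold change was 0.08 (SE 0.05, 95% interval -0.03 to 0.20, adjusted p = 0.20), and Cxcr4 passed as higher after quantile normalization (0.19, adjusted p = 0.018).

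The promoters of the receptors called higher are shown so that their sequence can be read beside the change. RefSeq promoters of 300 bases, from 250 before to 50 after the start site (GRCm38.p6), matched 7 of the 9 genes, all but Ccr7 and Cxcr5. The promoter of Cxcr3 is chrX:101734098-101734397, minus strand, and that of Ccr9 is chr9:123766961-123767260, plus strand, 88772 bases from the start of the gene in the deposited table. Capitals mark matches, on either strand, to 7 short motifs of T-cell factors: T-box GGTGTGA, RUNX TGTGGT, TCF/LEF CTTTGA, FOXO GTAAACA, KLF CCACCC, ETS GGAAGT and STAT TTCNNNGAA.
Cxcr3: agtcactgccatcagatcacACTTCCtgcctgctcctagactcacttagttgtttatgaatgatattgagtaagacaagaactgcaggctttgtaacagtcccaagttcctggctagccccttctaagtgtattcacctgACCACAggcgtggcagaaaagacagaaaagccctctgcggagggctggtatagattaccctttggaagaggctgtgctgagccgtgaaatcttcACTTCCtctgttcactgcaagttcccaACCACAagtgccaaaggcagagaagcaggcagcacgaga
Ccr9: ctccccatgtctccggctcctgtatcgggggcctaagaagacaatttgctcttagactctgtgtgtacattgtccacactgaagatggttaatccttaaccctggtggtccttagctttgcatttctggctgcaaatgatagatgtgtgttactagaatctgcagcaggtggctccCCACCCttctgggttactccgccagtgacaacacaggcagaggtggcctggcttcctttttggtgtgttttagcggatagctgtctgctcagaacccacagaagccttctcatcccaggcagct
The Cxcr3 promoter held 2 RUNX and 2 ETS matches, and the Ccr9 promoter held 1 KLF match. Over all 32851 promoters of the table, 16.8% held the RUNX motif, 23.8% the ETS motif and 31.5% the KLF motif. Among the other matched receptors, the Cxcr6 promoter held 1 RUNX and 1 TCF/LEF match, that of Ccr4 held 1 ETS and 1 TCF/LEF match, that of Ccr8 held 1 KLF match, and those of Ccr2 and Cxcr4 held none. The TCF/LEF motif was found in 16.0% of all promoters. No receptor promoter held the T-box, FOXO or STAT letters, which 3.98%, 3.65% and 8.30% of all promoters held. Cxcr4 stood apart in composition, with 59.3% G and C and 20 CpG sites, against 1 to 4 CpG sites in the other 6 and a median of 7 over all promoters.

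Since most T-cell identity genes were higher in cisplatin, each receptor was also set against the mean of the 26 T-cell identity genes in the same library. That mean, on the log2(FPKM + 0.1) scale, was 5.94 ± 0.019 in cisplatin and 5.43 ± 0.022 in control (SD, n = 3). Of the 26 genes, 24 were higher, 1 was lower and 1 did not pass (Themis and Tespa1, named after their values were seen). On the deposited FPKM 27.5% of all tested genes were higher and 29.0% lower. The scaling sets the mean change of the 26 genes to 0. After this centring 3 receptors were higher (Ccr9, Cxcr3 and Ccr2), 3 were lower (Cxcr6, Cxcr4 and Cxcr5) and 3 did not pass (Ccr4, Ccr7 and Ccr8). None reached a 2-fold change. Over all tested genes 5.72% were higher and 62.3% lower after centring, and the median log2 fold change moved from 0.03 to -0.49. Of all called genes 75.7% were lower on the deposited FPKM, 95.5% after centring and 64.6% after quantile normalization.

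Relative to the T-cell mean, Ccr9 stood at -3.81, -3.70 and -3.86 in the cisplatin libraries and at -4.59, -4.77 and -4.69 in the control libraries on the log2 scale, a difference of 0.90 (SE 0.09, adjusted p = 0.00014). Cxcr3 stood at -0.06, -0.15 and -0.08 against -0.52, -0.64 and -0.60, a difference of 0.49 (SE 0.04, adjusted p = 6.7e-05). Ccr2 differed by 0.38 (SE 0.10, adjusted p = 0.014). These 3 were therefore higher on both scalings. Their libraries did not overlap on either, as was so in 64.2% of all tested genes on the deposited FPKM. That share was not formed after centring, where the libraries of Cxcr6, Cxcr4 and Cxcr5 did not overlap either.

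Cxcr6 stood at -1.94, -1.96 and -1.99 in cisplatin and at -1.21, -1.38 and -1.28 in control relative to the same mean, a difference of -0.67 (SE 0.05, adjusted p = 2.9e-05). Cxcr4 differed by -0.43 (SE 0.05, adjusted p = 0.00033) and Cxcr5 by -0.34 (SE 0.06, adjusted p = 0.0021). The sign of Cxcr4 and Cxcr5 was thus opposite on the 2 scalings, and the sign of Cxcr6 was the same. Ccr7 stood at 2.01, 1.96 and 1.97 in cisplatin and 1.96, 1.92 and 2.04 in control. Its difference was 0.01 with a 95% interval from -0.08 to 0.10 (adjusted p = 0.86). For Ccr4 the difference was 0.16 (adjusted p = 0.26) and for Ccr8 -0.31 (adjusted p = 0.24), and both overlapped between the groups.

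**Figure D2:**
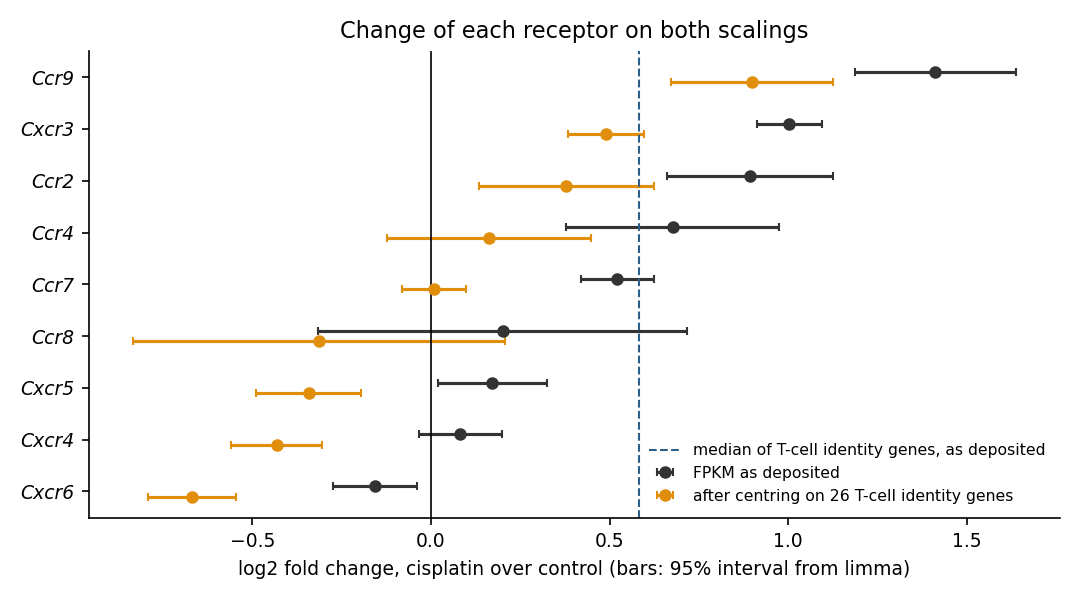
Log2 fold change of each receptor, cisplatin over control, with 95% intervals from limma, on the FPKM as deposited (dark) and with the mean of the 26 T-cell genes subtracted (orange). The dashed line is the median of those genes at 0.58. Ccr9, Cxcr3 and Ccr2 lie to the right of 0 on both scalings, while Cxcr4, Cxcr5 and Ccr8 change sides.

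A measure that needs no scaling between libraries is the share of each receptor in the summed FPKM of the 9, which ran from 357 to 360 FPKM in cisplatin and from 240 to 262 FPKM in control. The share of Cxcr3 was 16.0% ± 0.317 in cisplatin and 11.5% ± 0.472 in control (SD, n = 3). That of Ccr9 was 1.22% ± 0.084 and 0.631% ± 0.035. In contrast, Cxcr6 made up 4.38% ± 0.071 and 7.02% ± 0.291, and Cxcr4 4.80% ± 0.209 and 6.52% ± 0.345. In each of these 4 receptors the libraries of the groups did not overlap, and a two-sided exact permutation test of 3 against 3 libraries cannot give a p-value below 0.1. The shares of Cxcr5 (3.51% and 4.46%) and Ccr2 (0.914% and 0.692%) did not overlap either, while those of Ccr7, Ccr4 and Ccr8 did. Such shares were not formed for other genes, so no base rate stands beside them. Ccr7 held 67.6% of the sum in cisplatin and 67.7% in control, so a share mostly sets a receptor against Ccr7. Shares sum to a whole, so a larger share of one receptor lowers the others.

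The other chemokine receptors of the mouse, including the atypical scavenging receptors, gave 16 further genes, of which 7 passed the expression filter. Of these, 4 were higher and 3 did not pass, with a median log2 fold change of 0.23. The shares over all tested genes were 27.5% higher and 29.0% lower. Cmklr1, a chemerin receptor of macrophages and dendritic cells, rose from 0.271 ± 0.117 to 1.65 ± 0.423 FPKM (SD, n = 3; log2 fold change 2.25, adjusted p = 0.0012). Its control mean lies under the 0.5 FPKM of the filter, which it passed through the cisplatin libraries, so its fold change and test are no independent support. Ccr1, a receptor of monocytes and neutrophils, rose from 2.13 to 4.57 FPKM (1.06, adjusted p = 0.00049). Ccr6, carried by Th17 and B cells, rose from 11.4 to 18.8 FPKM (log2 fold change 0.72, adjusted p = 0.00030).

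The ligands of the 9 receptors were read in the same libraries. Of 20 ligand genes 10 were tested, and 2 were higher, 4 lower and 4 did not pass, with a median log2 fold change of -0.42. Beside these counts, 27.5% of all tested genes were higher and 29.0% lower. For Ccr7, Cxcr5 and Ccr8 the ligands Ccl19, Ccl21a, Ccl21b, Ccl21c, Cxcl13 and Ccl1 had 0 reads in all 6 libraries, below a floor of 3 reads per library. Ccl8, a further ligand of Ccr8 and also of Ccr2, was detected at a low level. It stood at 0.482 FPKM in cisplatin and 0.086 FPKM in control, from at most 20 reads in a library, and was not tested. No read was thus assigned to a ligand gene of Ccr7, the most abundant receptor of the set. How reads that match several genes were treated is not given, so the absence of assigned reads need not mean an absent transcript.

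Ligands of Cxcr3 and Cxcr6 were lower where a ligand changed. Cxcl10 measured 9.26, 9.27 and 7.63 FPKM in cisplatin and 15.0, 15.0 and 16.0 FPKM in control (log2 fold change -0.81, adjusted p = 0.00021), the opposite direction to Cxcr3. Cxcl9 (adjusted p = 0.10) and Pf4 (adjusted p = 0.11) did not pass, and Cxcl11, at 0.105 and 0.894 FPKM, was below the filter. Cxcl16, the ligand of Cxcr6, measured 7.45, 8.63 and 8.40 FPKM in cisplatin and 13.0, 13.0 and 10.6 FPKM in control (log2 fold change -0.57, adjusted p = 0.0026).

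Of the ligands of Cxcr4, Mif was tested and was lower. Mif, the macrophage migration inhibitory factor, measured 199, 202 and 193 FPKM in cisplatin and 483, 522 and 559 FPKM in control (log2 fold change -1.39, adjusted p = 2.4e-06). Cxcl12 stood at 0.061 ± 0.012 FPKM in cisplatin and 0.532 ± 0.066 FPKM in control (SD, n = 3), under the filter for testing. The ID8 markers fell with these ligands, 23 of the 25 tested, against 29.0% lower over all tested genes. Their median log2 fold change was -2.38, and the part of these markers in the ligand levels was not tested.

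Ligands of Ccr2 and Ccr4 moved in both directions. Ccl22, a ligand of Ccr4, was 29.0, 27.2 and 25.7 FPKM in cisplatin and 13.3, 13.7 and 13.9 FPKM in control, and its log2 fold change of 0.998 (adjusted p = 7.4e-06) lay just under the 2-fold minimum. Ccl17 did not pass (adjusted p = 0.39). Ccl7 rose from 2.35 to 5.04 FPKM (log2 fold change 1.07, adjusted p = 0.00011), while Ccl2 was lower, at 22.1 FPKM against 26.7 FPKM (log2 fold change -0.26, adjusted p = 0.011). Ccl25, the ligand of Ccr9, stood at 1.68 FPKM in cisplatin and 1.74 FPKM in control and did not pass (adjusted p = 0.74), beside the largest change among the receptors.

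**Figure D3:**
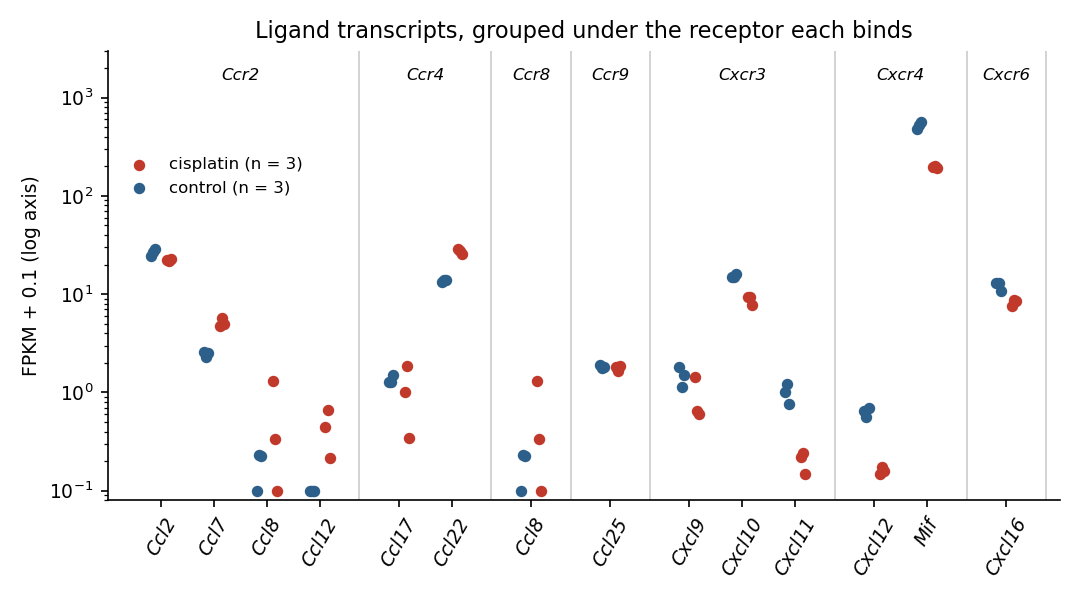
FPKM + 0.1, on a log axis, of the ligands with more than 3 reads in a library, grouped under the receptor each binds. The 3 control libraries are in blue and the 3 cisplatin libraries in red, and Pf4 is not plotted. Mif, Cxcl10, Cxcl16 and Cxcl12 sit lower in cisplatin, Ccl22 and Ccl7 sit higher, and Ccl25 lies between 1.55 and 1.82 FPKM in all 6 libraries.

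Downstream of the receptors, 30 genes of chemokine signalling were tested, and 21 were higher, 4 lower and 5 did not pass, beside shares of 27.5% higher and 29.0% lower over all tested genes. The median log2 fold change of the 30 was 0.35, while that of the T-cell markers was 0.58 and that of the ID8 markers -2.38, and the part of these markers was not tested. The lower genes were Arrb1 and, named after their values were seen, the G protein subunits Gnb1 and Gnb2 and the regulator Rgs10. Arrb1, which encodes the beta-arrestin that ends signalling of an engaged receptor, fell from 28.6 ± 0.832 to 9.82 ± 0.064 FPKM (SD, n = 3; log2 fold change -1.53, adjusted p = 3.0e-07). Its paralogue Arrb2, named here after its value was seen, moved the other way, from 31.1 to 39.5 FPKM (log2 fold change 0.35, adjusted p = 0.00027). Grk5, a G protein-coupled receptor kinase, rose from 2.93 to 6.36 FPKM (log2 fold change 1.09, adjusted p = 0.00021).

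Genes of homing and adhesion that act with the receptors gave 15 higher and 2 lower (Itgb1 and, named after its value was seen, Cd44) of 17 tested, against 27.5% higher and 29.0% lower over all tested genes. Their median log2 fold change was 0.54, beside 0.58 for the T-cell markers and -2.38 for the ID8 markers, whose part was not tested. Icam2, a ligand of the integrin LFA-1, rose from 7.29 to 19.7 FPKM (log2 fold change 1.42, adjusted p = 1.8e-06), and Itgb1, the beta-1 integrin chain, fell from 77.6 to 36.7 FPKM (log2 fold change -1.08, adjusted p = 2.0e-06). Some partners of Ccr7 in recirculation, chosen after their values were seen, rose beside Ccr7 at 0.52 (adjusted p-values up to 0.0022, limma): S1pr1, the receptor for leaving lymph nodes, by 0.71, and Klf2, a factor that induces it, by 0.33 on the log2 scale.

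Transcription factors of the T-cell subsets that carry these receptors gave 12 higher, 3 lower (among them Maf and, named after its value was seen, Zbtb7b) and 3 not passing of 18. Over all tested genes 27.5% were higher and 29.0% lower. The median log2 fold change of the 18 was 0.55, beside 0.58 for the T-cell markers, whose part was not tested. Foxp3, the factor of regulatory T cells, in which Ccr4 and Ccr8 are known, rose from 2.64 ± 0.235 to 6.62 ± 0.147 FPKM (SD, n = 3; log2 fold change 1.30, adjusted p = 1.8e-05). Beside it Ccr4 rose by 0.68, and Ccr8 had a log2 fold change of 0.20 that did not pass. Eomes, a factor of CD8+ effector and memory cells, rose from 1.33 to 2.86 FPKM (log2 fold change 1.05, adjusted p = 0.00030). Tbx21, the Th1 factor that induces Cxcr3 and named here after its value was seen, rose from 10.7 to 16.2 FPKM (log2 fold change 0.59, adjusted p = 0.00052). Maf, a factor of follicular helper and Th17 cells, fell from 18.2 to 8.57 FPKM (log2 fold change -1.08, adjusted p = 1.8e-06), beside a log2 fold change of 0.17 for Cxcr5 that did not pass.

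**Figure D4:**
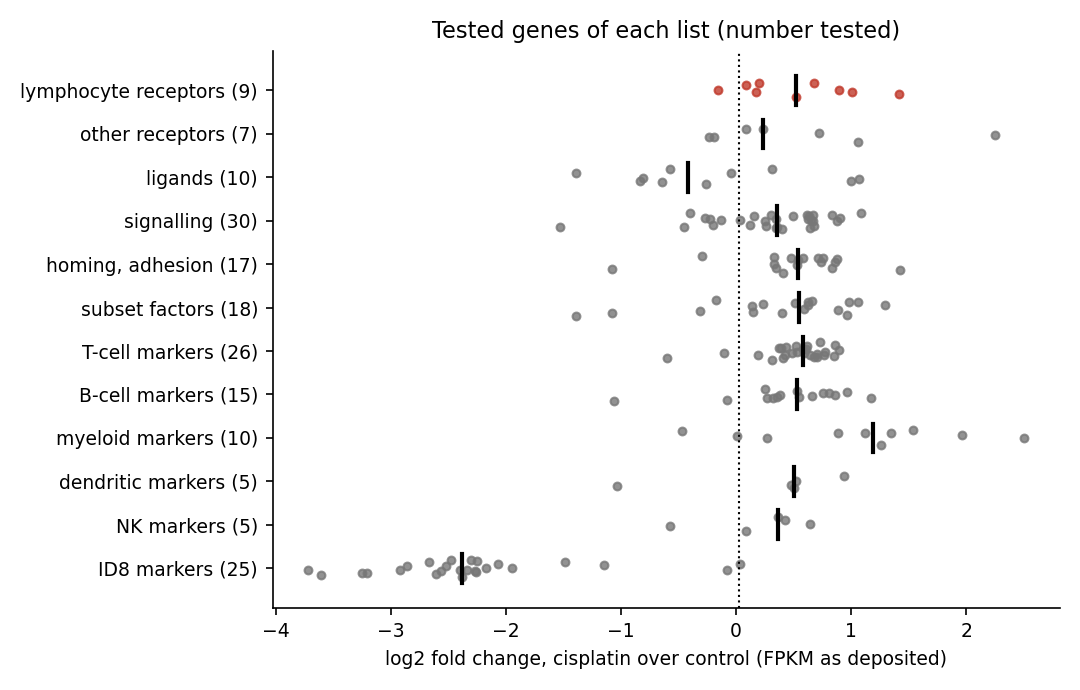
Log2 fold change, cisplatin over control on the FPKM as deposited, of each tested gene in 12 lists, with the lymphocyte receptors in red, a bar at each list's median and a dotted line at the median of all tested genes (0.03). The receptors centre on 0.52, near the T-cell markers (0.58) and the B-cell markers (0.53), below the myeloid markers (1.19) and far from the ID8 markers (-2.38).

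The markers of the cell types moved beside the receptors as follows, where 27.5% of all tested genes were higher and 29.0% lower at the adjusted p-value. Of the 15 B-cell markers 13 were higher and 1 lower (median log2 fold change 0.53), led by Ighm, the heavy chain of IgM, at 1433 and 3220 FPKM in control and cisplatin. Since B cells carry Ccr7, Cxcr4, Cxcr5 and Ccr6, the part of these markers in those receptors was not tested. Of the 10 tested myeloid markers 8 were higher, 1 was lower and 1 did not pass. The 8 include Fcgr1 and Adgre1, which passed the filter through the cisplatin libraries. Clec7a, the receptor for fungal beta-glucans, rose from 2.75 to 16.0 FPKM and Lyz2, lysozyme, from 30.8 to 89.7 FPKM, while Cd14 fell from 7.43 to 5.35 FPKM and Cd68 stood at 24.1 and 24.2 FPKM in control and cisplatin (both named after their values were seen). The 5 tested markers of dendritic cells had 4 higher and 1 lower (median 0.50). The lower one was Zbtb46, a factor of conventional dendritic cells, at 2.69 FPKM in control and 1.27 FPKM in cisplatin (adjusted p = 0.00069), and Cd209a, a marker of monocyte-derived dendritic cells, was at 0 in all 6 libraries. Of the 5 tested NK markers 4 did not pass and 1 was lower (Adamts14, named after its value was seen, at 2.87 FPKM in control and 1.91 FPKM in cisplatin).

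The genes closest to each receptor in pattern were found by the Euclidean distance of log2(FPKM + 0.1), centred on each gene's mean, over the 6 libraries and 7665 protein-coding genes that averaged 5 FPKM or more. Nearest to Ccr9 were Amigo3 (distance 0.139), Clec4n (0.142), which encodes a myeloid C-type lectin, and Lilrb4a (0.199), an inhibitory receptor of myeloid cells. Nearest to Cxcr3 were Plxnc1 (0.052), Heatr1 (0.058) and Ms4a6b (0.067). Nearest to Ccr7 were Dennd4a, Srgn and Pde4b (0.051 to 0.053), to Ccr2 Egr3, Dok3 and Klhdc4 (0.101 to 0.120), and to Ccr4 Ttll3, Ints6l and Sgf29 (0.182 to 0.189). For Cxcr4 they were Nt5dc1, Zbtb25 and Psmb1, for Cxcr5 Adprhl2, Cog1 and Rwdd1, for Cxcr6 Fam173a, Wiz and Vps13b, and for Ccr8 Taf13, Slc25a38 and Yrdc. With 6 libraries in 2 groups these distances mostly reflect the size of the difference between the groups.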

How the data were processed

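The FPKM values were deposited by the authors as one table of 54532 genes, with 0 further columns of samples. The submitters' processing notes name fastp, HISAT2 2.0.5, featureCounts 1.5.0-p3 and mm10, while the study's methods name LifeScope for alignment and counting, and which of them made the table is not settled here. Strand and the treatment of reads that match several genes are not given in the sources used here. The coordinates equalled GENCODE M21 for 53585 of 54495 shared genes. Whole reads were rebuilt from FPKM times gene length, and 100% of non-zero values came within 0.1 of an integer. The FPKM denominators were 1.03 to 1.05 times the reads on genes in cisplatin and 0.976 to 0.982 times in control. The deposited scaling thus set cisplatin values lower, per read on genes, than control values. With voom on the rebuilt reads the log2 fold change was -0.07 for Cxcr6 and 0.26 for Cxcr5, against -0.16 and 0.17 on the FPKM. The part of the denominators in this was not tested. Replicates differed by more than sampling noise.

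Groups were compared with limma 3.58.1 (R 4.3.3; lmFit, eBayes with trend) on log2(FPKM + 0.1) over 15874 genes averaging 0.5 FPKM or more, out of 33456 with any read. The pseudocount shrinks the fold changes of weakly expressed genes. A gene was called at a Benjamini-Hochberg adjusted p-value under 0.05 over all tested genes and at least a 2-fold change, and higher or lower at the adjusted p-value alone. The main limma fit was tested on simulated data in which rises and falls were equally likely, whereas 75.7% of the genes called here were lower. The other settings and the remaining steps were not simulated. The members and the 12 lists (211 genes) were chosen with earlier results of these data known. From each list other than receptors and ligands, up to 4 called genes of at least 1 FPKM with the largest change were named, and for each receptor the 3 nearest genes. Some items of the lists are not reported here. Other settings were pseudocounts, filters, scalings (median of ratios, quantile, T-cell centring, TPM), no trend, protein-coding genes, voom on rebuilt reads, single libraries left out and a replicate block. Python 3.11.15, pandas 2.3.3 and biopython 1.88 were used for tables and sequences and matplotlib 3.10.9 for figures.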

Additional observations from a re-analysis of the deposited data

How the results depend on the processing

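The number of receptors called higher, 2 on the deposited FPKM, was 1 with a pseudocount of 1, with a mean of at least 5 FPKM (Ccr9 is then not tested), with the median of ratios and with TPM. It was 0 after centring on T-cell identity genes, 3 after quantile normalization and with voom, where Ccr2 reached the minimum too (1.08 and 1.01), and 1 to 2 when a library was left out. Receptors higher at the adjusted p-value, 5 in the main setting, were 3 with the 5 FPKM filter (Ccr7, Cxcr3 and Cxcr5, with the 4 low receptors not tested), 3 after centring, 7 after quantile normalization, 6 with voom, 6 among protein-coding genes alone and 5 to 6 with a library left out. Receptors lower, 1 (Cxcr6), were 0 with no filter, after quantile normalization, with no trend, with voom and with the replicate block, 3 after centring, and 0 to 1 with a library left out. After centring the log2 fold change was -0.31 for Ccr8, -0.43 for Cxcr4 and -0.34 for Cxcr5, opposite in sign to the deposited scale. For Ccr8 it ran from -0.017 (without control replicate 2) to 0.35 with a library left out. Other chemokine receptors past the adjusted p-value were 1 instead of 4 with the 5 FPKM filter, and homing genes 10 instead of 17 after centring. The cause of the changes under scalings was not tested.

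Over all genes, 653 were called higher and 2034 lower. The higher calls were 311 with a pseudocount of 1, 242 (903 lower) with the 5 FPKM filter, 160 (3418 lower) after centring, 255 among protein-coding genes alone and 1127 with voom. Same-numbered libraries did not deviate together (correlations from -0.063 to 0.023). These deviations are from means of 3 libraries. They cannot show whether same-numbered libraries share a mouse or culture, which the labels do not state. With the replicate block the adjusted p-value of Cxcr6 was 0.063 and 2 receptors were still called higher. Ccr8, at 31 to 57 reads per library, is the receptor most limited by depth.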
